A study of Mus musculus with 11 samples.

Results

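The genes described here belong to 3 routes of regulated cell death: apoptosis, necroptosis and the inflammasome pathway with its pyroptotic effector. They were 40 genes picked by name, all of which had a row in the deposited table of 23284 genes, and 36 of them passed a low-value filter of at least 10 normalized counts in at least 5 libraries. The table holds mRNA libraries of mouse retina at postnatal day 21, 6 from Nrl knock-out and 5 from wild-type retina. All samples share tissue and age, and the labels name no strain, sex or allele and do not say whether the replicates came from separate animals. Nrl is a transcription factor of rod photoreceptors, and the comparison shows how the transcripts of cell death genes differ in a retina without it.

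In apoptosis, proteins of the Bcl2 family decide at the mitochondrion whether cytochrome c is released. BH3-only proteins inhibit the survival members or activate the pore formers Bax and Bak1, and released cytochrome c then activates caspase-9 on the Apaf1 scaffold. Death receptors take another route, through Fadd and caspase-8, which Cflar restrains, and where caspase-8 is inactive, Ripk1 and Ripk3 can pass the signal to Mlkl and necroptosis. Inflammasomes activate caspase-1, which cleaves interleukin precursors and gasdermin D. In the retina these routes are studied mainly as ways in which photoreceptors die, and much of the inflammasome machinery is known from microglia and macrophages.

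The libraries held 14907613 to 20685840 reads in genes, 14907613 to 19877314 in knock-out and 16126210 to 20685840 in wild-type retina. Nrl averaged 51.7 ± 5.1 normalized counts in knock-out retina (SD, n = 6) and 37017 ± 1947 in wild-type retina (SD, n = 5), in keeping with the labels. Among the defining retinal markers, all 5 rod genes were called lower, with a summed level of 1921 to 2405 normalized counts in knock-out and 1155970 to 1367600 in wild-type libraries, and all 6 cone genes were called higher. All 15 microglia and macrophage genes were called higher, and their summed level was 5122 to 7319 in knock-out and 1606 to 2040 in wild-type libraries, with none of the 15 at 0. All 8 interferon response genes were called higher, with a summed level of 5275 to 8791 in knock-out and 1843 to 2057 in wild-type libraries. Both tested lymphocyte and neutrophil genes were called higher, as were 3 of 7 genes of Müller glia and astrocytes, 2 of 7 of endothelium and pericytes, 1 of 6 of pigment epithelium and 1 of 6 of retinal neurons, where 1, 1, 0 and 3 genes were called lower. Wild-type replicate 1 and knock-out replicate 2 stood at one end of the second principal component (7.34% of the variance, beside 76.7% on the first, which parted the genotypes); without both, the same 20 genes of the set were called as with them. In bulk retina a difference in the number of cells of a type and a difference in RNA per cell cannot be told apart.

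Of the 36 tested members, 20 were called (limma, Benjamini-Hochberg adjusted p under 0.05 over all 14584 tested genes), 15 higher and 5 lower in knock-out retina. That is 55.6% of the tested members, beside 46.3% of all tested genes, with 23.6% called higher and 22.7% called lower. When each library was scaled to its total, limma called 5861 of all genes higher and 1711 lower, against 3448 and 3304, and 22 members higher and 4 lower. Differences of at least 2-fold were called for 9 members, 8 of them higher and 1 lower, where 5.17% of all tested genes were at least 2-fold higher and 2.6% at least 2-fold lower. The median difference on the log2 scale was 0.14 over the tested members and -0.0073 over all tested genes. Groups did not overlap for 18 of the 36, beside 30.9% of all tested genes. Of 13 tested members with a mean under 100 normalized counts, 8 were called higher and 0 lower, whereas of 23 members with a mean of at least 100, 7 were called higher and 5 lower. Over all tested genes, 731 were called higher and 412 lower of 3230 with a mean under 100, and 2717 higher and 2892 lower of 11354 above it. Casp1 and Birc3 reached 10 normalized counts in 0 wild-type libraries, Casp12 in 1, Fas in 3 and Casp8 in 4, and all of them in 6 knock-out libraries. These 5 genes passed the filter through the group where they were high, so the counts are given as a description only. Below, values with ± are means and SDs of normalized counts over the 6 knock-out and 5 wild-type libraries, and differences are log2 fold changes with the standard error (SE) and adjusted p from limma.

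**Figure D1:**
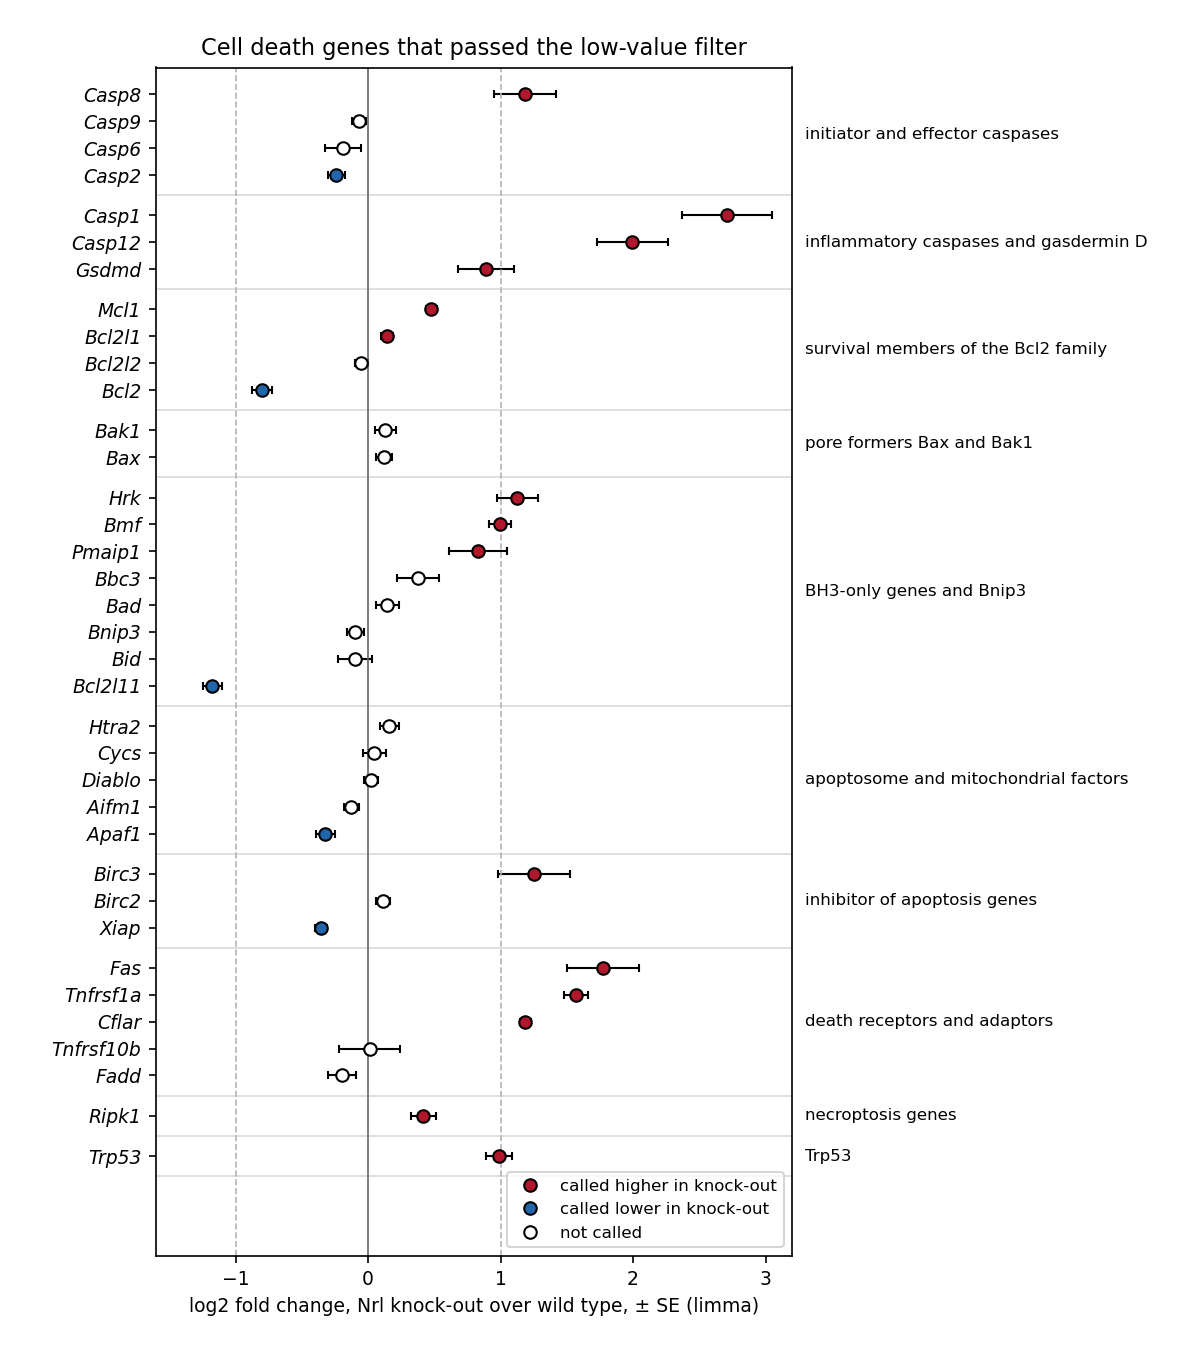
Log2 fold change of the 36 tested genes, knock-out over wild type, with the standard error from limma (6 knock-out and 5 wild-type libraries), ordered by role. Filled points were called, and dashed lines mark a 2-fold difference: Casp1 (2.71) lies farthest to the right and Bcl2l11 (-1.18) farthest to the left.

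Of the 5 genes of death receptors and their adaptors, 3 rose and none fell. That is 60% called, beside 46.3% of all tested genes, of which 23.6% were called higher. Fas was 1 of the genes that passed the filter through knock-out values, with 3 of 5 wild-type libraries at 10 normalized counts. Fas and Tnfrsf1a, the receptors for Fas ligand and tumour necrosis factor, and Cflar, the inhibitor of caspase-8 at these receptors, rose by 1.77, 1.57 and 1.19 on the log2 scale. Fas ranged over 27.9, 36.5 and 54.8 normalized counts (lowest, median, highest) in the 6 knock-out libraries, against 5.99, 5.52, 14.6, 17.5 and 13.02 in wild-type replicates 1 to 5. Tnfrsf1a ranged over 310.5, 345.5 and 407.4 in knock-out retina, against 97.0, 117.8, 123.3, 132.01 and 119.2 in wild-type retina. The groups of neither receptor overlapped, although wild-type Fas spread over about a 3-fold range. Cflar ranged over 2241, 2368 and 2497 in knock-out retina, against 1091, 1064, 975, 1002 and 1041 in wild-type retina. It had the smallest adjusted p of the members (SE 0.043, adjusted p = 3.6e-14 in limma), ahead of Tnfrsf1a (SE 0.088, adjusted p = 2.54e-11) and Fas (SE 0.27, adjusted p = 2.7e-05). Fadd, the adaptor that joins both receptors to caspase-8, averaged 92.3 ± 6.5 in knock-out and 106.3 ± 12.8 in wild-type retina and was not called (-0.20, adjusted p = 0.132). Tnfrsf10b, the receptor for the death ligand encoded by Tnfsf10, averaged 13.7 ± 3.6 and 13.3 ± 2.0 in knock-out and wild-type retina and was not called (0.013, SE 0.23).

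Of the initiator and effector caspases, Casp8 rose and Casp2 fell. Casp8, the initiator at death receptors, ranged over 25.01, 34.6 and 51.5 normalized counts in knock-out libraries, against 15.6, 18.4, 14.6, 8.73 and 18.03 in wild-type libraries (1.18, SE 0.23, adjusted p = 0.000345). Its lowest knock-out library was still above every wild-type library. The log2 ratio of Cflar to Casp8 was 6.06 ± 0.45 in knock-out and 6.05 ± 0.37 in wild-type retina, a difference of 0.0047 between the means. Cflar and Casp8 are neighbours on mouse chromosome 1, with 0 protein-coding genes between them in the RefSeq annotation of GRCm38.p6. Casp2, an initiator linked to DNA damage, fell to 404 ± 34 in knock-out retina, against 476 ± 25 in wild-type retina (-0.24, SE 0.066, adjusted p = 0.00575). That call ended when each library was scaled to its total (-0.10 in limma, adjusted p = 0.225). Casp9, the initiator of the mitochondrial route, stood at 686 ± 35 and 719 ± 30 in knock-out and wild-type retina, and Casp6, an effector, at 52.4 ± 7.4 and 59.9 ± 7.9. Neither was called (-0.067 and -0.19).

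Of the inflammatory caspase group, Casp1, Casp12 and Gsdmd rose and Casp4 was too low to test. Casp1, the inflammasome protease, ranged over 14.8, 16.5 and 22.2 normalized counts in knock-out libraries, against 2.40, 0.92, 5.82, 1.09 and 1.00 in wild-type libraries, which rest on 111 reads in knock-out and 11 in wild type. Its log2 fold change of 2.71 (SE 0.34, adjusted p = 2.1e-06) depends on the count added before the log and was 1.68 with 5 added in place of 1. Casp12, a relative of the inflammatory caspases linked to endoplasmic reticulum stress in mice, ranged over 24.4, 27.2 and 34.98 in knock-out libraries, against 11.98, 4.603, 5.82, 8.73 and 3.00 in wild-type libraries (1.99, SE 0.27, adjusted p = 6.06e-06). Gsdmd, the pore-forming substrate of the inflammatory caspases, averaged 26.3 ± 6.4 in knock-out and 13.6 ± 2.7 in wild-type retina (0.89, SE 0.21, adjusted p = 0.00209), and its groups overlapped in 1 knock-out library. Casp4, the mouse protease that senses bacterial lipopolysaccharide in the cytosol, failed the filter. It had 23 reads in the 6 knock-out libraries and 3 in the 5 wild-type libraries, 3.69 ± 0.85 against 0.62 ± 0.91 normalized counts. Its groups did not overlap, but the lowest knock-out value (2.78, or 3 reads) and the highest wild-type value (2.00) differ by less than counting error allows to be told apart. Casp1, Casp4 and Casp12 lie in a row on chromosome 9 with 0 protein-coding genes between them. Beside these differences stands the summed level of the microglia and macrophage markers, 3.48-fold higher in the mean of the knock-out libraries, and its part in these results was not tested.

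**Figure D2:**
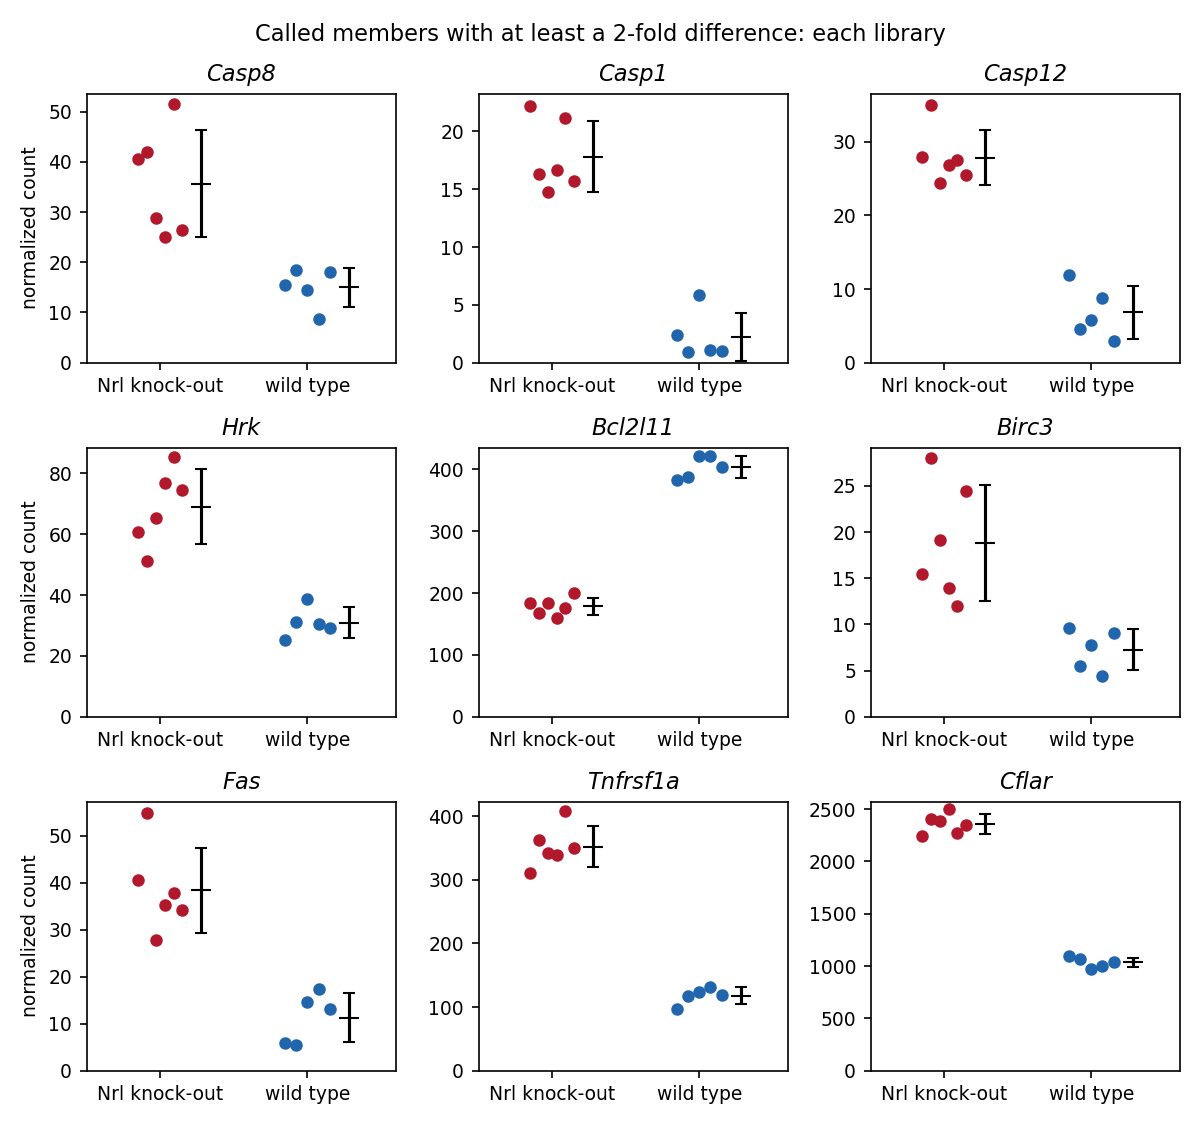
Normalized counts of the 9 called genes with at least a 2-fold difference, 1 point per library, knock-out at the left and wild type at the right of each panel, with the mean and SD beside the points. In each panel the groups do not overlap, and Bcl2l11 alone is lower in the knock-out.

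Of the necroptosis genes, Ripk1 rose and the 2 downstream genes had few reads. Ripk1, the kinase at the tumour necrosis factor receptor that serves both survival and death signals, averaged 220.1 ± 15.9 normalized counts in knock-out and 165.6 ± 23.8 in wild-type retina (0.42, SE 0.094, adjusted p = 0.00128). The lowest knock-out library (200.1) was above the highest wild-type library (194.2). Ripk3, the kinase that activates Mlkl, had 6 reads over all knock-out and 9 over all wild-type libraries. It was at 0 in 3 of 6 knock-out libraries, where a count of 0 allows up to 3 reads, or 2.61 to 2.94 normalized counts. Mlkl, the membrane-rupturing effector, had 47 reads in knock-out and 13 in wild-type libraries, with 4.35, 5.34 and 17.5 normalized counts (lowest, median, highest) in knock-out, against 3.59, 3.68, 1.94, 3.27 and 1.00 in wild-type libraries. Its highest value was that of knock-out replicate 2, which also had the highest summed level of microglia and macrophage markers (7319). Both failed the filter. With no filter, Mlkl was called (1.17, adjusted p = 0.0153) and Ripk3 was not (-0.71, adjusted p = 0.188).

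Promoters were searched because several death receptor and caspase genes rose together and because all 8 interferon response genes listed as markers were also called higher. RefSeq promoter sequences of GRCm38.p6, 250 bases before to 50 after a gene's start, were found for 35 of the 40 members, 48 promoters in all, and both strands were searched. The gamma-activated site, TTCNNNGAA, a binding site of the interferon gamma response, was present in 8.33% of the members' promoters and in 8.3% of all 32851 promoters, a like share. The 4 members with a match were Casp12, Fas, Tnfrsf1a and Ripk1, all called higher, as were 15 of the 36 tested members and 23.6% of all tested genes. Because rises of such genes prompted the search, this is a description only, and a link of the site to the rise was not tested. The 250 bases before their starts are shown 5′ to 3′ on the + strand, with each match in capitals, so that these sites can be read in place. They lie at chr9:5345226-5345475, chr19:34290409-34290658, chr6:125349473-125349722 and chr13:34002624-34002873.
Casp12: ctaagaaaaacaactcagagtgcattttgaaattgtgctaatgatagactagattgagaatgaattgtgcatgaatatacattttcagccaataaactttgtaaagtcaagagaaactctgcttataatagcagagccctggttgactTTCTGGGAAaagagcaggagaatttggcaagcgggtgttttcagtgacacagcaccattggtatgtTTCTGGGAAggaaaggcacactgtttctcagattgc
Fas: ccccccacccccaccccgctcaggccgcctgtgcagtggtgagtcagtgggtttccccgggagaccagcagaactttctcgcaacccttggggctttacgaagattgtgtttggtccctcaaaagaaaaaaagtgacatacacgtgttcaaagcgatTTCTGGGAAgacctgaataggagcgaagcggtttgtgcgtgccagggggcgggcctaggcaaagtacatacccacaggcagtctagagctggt
Tnfrsf1a: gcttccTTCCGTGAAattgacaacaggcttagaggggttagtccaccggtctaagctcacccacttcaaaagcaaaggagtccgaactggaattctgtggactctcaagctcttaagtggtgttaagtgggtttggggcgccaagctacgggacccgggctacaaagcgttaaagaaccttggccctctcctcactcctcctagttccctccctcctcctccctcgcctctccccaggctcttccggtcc
Ripk1: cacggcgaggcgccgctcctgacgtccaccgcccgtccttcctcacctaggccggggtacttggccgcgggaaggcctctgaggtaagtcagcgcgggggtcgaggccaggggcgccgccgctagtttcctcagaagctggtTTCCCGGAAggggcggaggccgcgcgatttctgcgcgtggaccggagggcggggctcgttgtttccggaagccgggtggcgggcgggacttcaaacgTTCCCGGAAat
Casp12 and Ripk1 hold 2 matches each, and the single match of Fas has the same letters as both of Casp12. The core of the interferon-stimulated response element, written as GAAA, any 2 bases and GAAA, was found in 4.17% of the members' promoters, those of Cflar and Ripk1, and in 3.44% of all promoters; the match of Ripk1 overlaps its second gamma-activated site. A site of the NF-kappaB family, written as GGGA, any 3 bases and TCC, was found in 14.6% of the members' promoters and 4.59% of all promoters, in Aifm1, Bak1, Bcl2l11, Bmf, Hrk, Trp53 and Xiap, of which 3 rose, 2 fell and 2 were not called. The half-site of Trp53 was found in 8.33% of the members' promoters (Bax, Birc2, Bmf and Trp53) and in 8.36% of all. The half-site TGCTGA of the response element of Maf factors, the family of Nrl, was found in 18.8% of the members' promoters and in 19.5% of all. These matches describe letters in a window and were not tested as binding sites.

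Of the BH3-only genes and Bnip3, Hrk, Bmf and Pmaip1 rose and Bcl2l11 fell. Bcl2l11, which encodes Bim, a broad activator of apoptosis, ranged over 160.3, 179.9 and 199.8 normalized counts in knock-out libraries, against 383.3, 388.5, 422.2, 422.2 and 404.6 in wild-type libraries (-1.18, SE 0.071, adjusted p = 7.22e-11). Bmf, a BH3-only protein tied to the cytoskeleton, moved the other way and averaged 633 ± 54 in knock-out and 318 ± 39 in wild-type retina (1.00, SE 0.082, adjusted p = 7.44e-09). The log2 ratio of Bmf to Bcl2l11 was 1.73 to 1.92 in knock-out and -0.59 to -0.23 in wild-type libraries. These ranges could not overlap, because every knock-out library was above every wild-type library for Bmf and below for Bcl2l11. Hrk, a neuronal BH3-only gene, ranged over 51.3, 69.9 and 85.5 in knock-out libraries, against 25.2, 31.3, 38.8, 30.5 and 29.04 in wild-type libraries (1.13, SE 0.15, adjusted p = 7.02e-06). Pmaip1, which encodes Noxa, a target of Trp53 that binds Mcl1, averaged 26.5 ± 7.6 and 14.2 ± 2.5 in knock-out and wild-type retina (0.83, SE 0.22, adjusted p = 0.00397).

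The other members of this group were not called. Bbc3, which encodes Puma, another target of Trp53, came nearest with 72.8 ± 13.6 in knock-out and 55.8 ± 10.8 in wild-type retina (0.38, SE 0.16, adjusted p = 0.0568). It was called without knock-out replicate 1 (adjusted p = 0.0221) or 2 (0.0416) and without wild-type replicate 4 (0.0381) or 5 (0.0385). Bad, inhibited by survival kinases, stood at 292.5 ± 27.4 and 264.9 ± 30.7 in knock-out and wild-type retina, and Bid, which links caspase-8 to the mitochondrion, at 68.2 ± 12.03 and 72.4 ± 5.8. Bnip3, a hypoxia-responsive gene of mitophagy, stood at 860 ± 54 and 921 ± 94. Bik, a BH3-only gene of the endoplasmic reticulum, had 8 reads over the knock-out and 16 over the wild-type libraries and failed the filter. Per kilobase of exon, Bnip3 held 55.3% ± 1.7 of the group's summed level in knock-out and 61.3% ± 2.7 in wild-type retina, whereas the share of Bmf was 15.7% ± 1.6 and 8.21% ± 1.42, and that of Bcl2l11 was 3.1% ± 0.26 and 7.28% ± 0.71. The group's summed level was 837 ± 31 and 809 ± 49 normalized counts per kilobase, a difference smaller than the SD of the wild-type libraries.

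Survival members of the Bcl2 family also moved apart. Bcl2 fell to 228.1, 254.6 and 304.4 normalized counts (lowest, median, highest) in knock-out libraries, against 431.3, 440.01, 476.6, 494.2 and 417.6 in wild-type libraries (-0.80, SE 0.077, adjusted p = 6.7e-08). Mcl1, a short-lived survival protein, rose to 2442 ± 74 in knock-out retina, against 1754 ± 78 in wild-type retina (0.48, SE 0.041, adjusted p = 1.26e-08). Bcl2l1, which encodes Bcl-xL, averaged 1738 ± 67 and 1573 ± 82 in knock-out and wild-type retina (0.14, SE 0.045, adjusted p = 0.0129), and stood at 0.28 when each library was scaled to its total, where the median of all tested genes was 0.13 in limma. Bcl2l2, which encodes Bcl-w, was not called (4274 ± 196 and 4435 ± 349 in knock-out and wild-type retina). Bcl2 was the least abundant survival gene per kilobase, with 28.4 in knock-out and 49.4 in wild-type retina, and held 1.27% ± 0.15 and 2.41% ± 0.22 of the summed level of these 4 genes. Mcl1 held 31.9% ± 1.0 and 25.0% ± 1.2, and the sum was 2238 ± 64 and 2054 ± 99 normalized counts per kilobase.

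The pore formers were not called. Bax stood at 424 ± 29 in knock-out and 388.9 ± 7.9 in wild-type retina (0.12, SE 0.060, adjusted p = 0.109) and Bak1 at 245.8 ± 23.9 and 223.7 ± 10.7 (0.13, SE 0.078, adjusted p = 0.184). Bax was called without knock-out replicate 5 (0.15, adjusted p = 0.0344), and both were called with each library scaled to its total (0.26 and 0.27 in limma). The log2 ratio of Bax to Bcl2 was 0.30 to 0.91 in knock-out and -0.37 to -0.11 in wild-type libraries, and these ranges did not overlap. The groups of Bcl2 alone did not overlap either, whereas those of Bax did, so the ratio largely restates the fall of Bcl2.

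Of the 5 apoptosome and mitochondrial factors, 1 was called (20%, beside 46.3% of all tested genes). Apaf1, the scaffold of the apoptosome, fell to 338 ± 33 in knock-out retina, against 421.9 ± 20.8 in wild-type retina (-0.32, SE 0.071, adjusted p = 0.000964). Cycs, the gene of somatic cytochrome c, stood at 128.05 ± 10.87 and 123.5 ± 5.4 in knock-out and wild-type retina, but it has many processed copies in the genome, so its reads are uncertain. Diablo and Htra2, which antagonize inhibitor of apoptosis proteins, stood at 888 ± 51 and 299 ± 23 in knock-out and at 874 ± 49 and 267 ± 18 in wild-type retina. Aifm1, the gene of apoptosis-inducing factor, stood at 515 ± 25 and 562 ± 32. Htra2 (0.16, adjusted p = 0.0783) and Aifm1 (-0.13, adjusted p = 0.0768) lay closest to the threshold; Htra2 was called with each library scaled to its total (0.29 in limma, adjusted p = 0.00284), and also once knock-out replicate 2 was left out (0.18, adjusted p = 0.0493).

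Among inhibitors of apoptosis, Xiap was the most abundant of the 40 genes per kilobase and fell. Xiap, which binds caspases directly, averaged 11019 ± 495 normalized counts in knock-out and 14077 ± 923 in wild-type retina (-0.35, SE 0.046, adjusted p = 3.96e-06), and its groups did not overlap. It held 81.1% ± 1.4 of the summed level per kilobase of the 3 genes in knock-out and 85.7% ± 1.5 in wild-type retina, and the sum was 1752 ± 53 and 2119 ± 108. Birc3, a ubiquitin ligase induced by NF-kappaB, ranged over 11.95, 17.3 and 27.98 in knock-out libraries, against 9.58, 5.52, 7.77, 4.36 and 9.01 in wild-type libraries (1.25, SE 0.27, adjusted p = 0.000949). Its relative Birc2, the adjacent gene on chromosome 9, stood at 1185 ± 63 in knock-out and 1096 ± 86 in wild-type retina and was not called (0.11, adjusted p = 0.103).

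**Figure D3:**
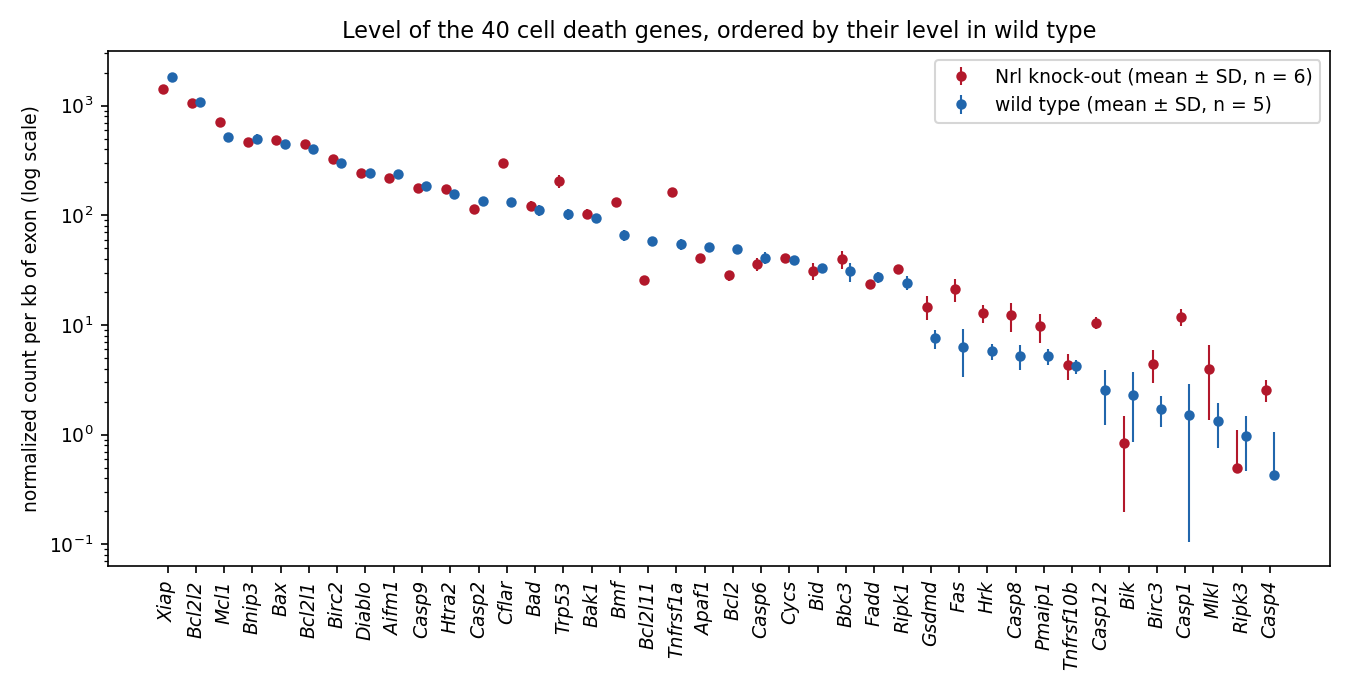
Level of all 40 genes in normalized counts per kilobase of exon on a log scale, as mean and SD, knock-out at the left and wild type at the right of each pair, ordered by the wild-type level. The lower part of the SD is left out where it would reach 0 (Ripk3 in knock-out, Casp4 in wild type). Xiap stands highest (1422 in knock-out, 1816 in wild type), and most genes with a marked rise lie at the low end.

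Trp53, the stress-responsive transcription factor p53, rose to 316.8, 389.4 and 451.9 normalized counts (lowest, median, highest) in knock-out libraries, against 155.7, 197.9, 194.1, 193.1 and 216.3 in wild-type libraries (0.99, SE 0.098, adjusted p = 9.65e-08). Every knock-out library was above every wild-type library, though reads of a processed Trp53 pseudogene in the mouse genome cannot be told apart from these counts. A further list of Trp53 targets and regulators left out the members Pmaip1 (called higher) and Bbc3 (not called). Of 19 tested genes on that list, 4 rose and 3 fell, or 36.8% called, beside 46.3% of all tested genes. Over all tested genes, 23.6% were called higher and 22.7% lower. The median difference of the list was 0.066 on the log2 scale. Cdkn1a, the cell cycle inhibitor and a classical target, averaged 207 ± 45 in knock-out and 114 ± 34 in wild-type retina (0.88, SE 0.20, adjusted p = 0.0023), and its groups overlapped. Polk, a DNA polymerase of lesion bypass, rose by 0.84, and Ccng1, which had the highest normalized count of the list, by 0.18. Ddit4, an inhibitor of mTOR signalling, fell to 1040.5 ± 65.5 in knock-out retina, against 1946 ± 130 in wild-type retina (-0.90, SE 0.054).

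Other genes of these pathways were counted from 6 further lists of 100 symbols, of which 99 were in the table and 75 passed the filter. 41 were called, 33 higher and 8 lower, or 54.7% beside the 46.3% of all tested genes. Scaling each library to its total left 47 higher and 2 lower in limma. Zbp1 and Naip2 reached 10 normalized counts in 0 wild-type libraries, and Tlr4, Tnfrsf22 and Tnfrsf23 in fewer than 5, so these 5 genes passed the filter through knock-out values, and the counts over the lists are a description only.

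Tnfaip3, an inhibitor of tumour necrosis factor and NF-kappaB signalling, fell to 917, 952 and 1029 normalized counts (lowest, median, highest) in knock-out libraries, against 7824, 7503, 7481, 8156 and 8151 in wild-type libraries (-3.03, SE 0.043, adjusted p = 2.77e-20). Every knock-out library was below every wild-type library.

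Of 27 inflammasome genes 15 were tested, 12 of which were called higher and 1 lower, with a median of 0.75 over the tested genes, Naip2 among them. That is 86.7% called, beside 46.3% of all tested genes, of which 23.6% were called higher and 22.7% lower. The 12 genes that failed the filter include the sensor gene Nlrp3 (51 reads in knock-out, 18 in wild-type libraries) and the cytokine gene Il1b (15 and 4 reads). The sensor gene Aim2 was tested and not called (0.14, adjusted p = 0.50 in limma). Gbp2 (2.84) and Gbp3 (2.19), interferon-induced GTPases that open the way to cytosolic sensing of bacteria, rose. Naip2, a mouse sensor of bacterial type III secretion, averaged 19.4 ± 1.7 in knock-out and 4.33 ± 1.37 in wild-type retina. These 3 genes belong to families with close copies, so their counts are uncertain. Nek7, the kinase partner of the Nlrp3 sensor, had the highest normalized count of the list and averaged 1605 ± 103 in knock-out and 1176 ± 79 in wild-type retina (0.45). Among 15 tested regulators of necroptosis and of the tumour necrosis factor receptor complex, 6 were called higher, Zbp1 and Tlr4 among them, and 1 lower. The share called, 46.7%, was close to that of all tested genes. Zbp1, a sensor of Z-form nucleic acid that can engage Ripk3, averaged 33.7 ± 15.3 and 4.75 ± 0.95 in knock-out and wild-type retina. Tlr4, the receptor for lipopolysaccharide, averaged 39.2 ± 9.0 in knock-out and 12.8 ± 4.4 in wild-type retina. These differences stand beside the summed levels of the interferon response genes (5275 to 8791 in knock-out, 1843 to 2057 in wild-type libraries) and of the microglia and macrophage markers given above, whose part in them was not tested.

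Of 11 tested genes on the list of death ligands and receptors 6 rose and none fell, with a median of 0.37. That is 54.5% called, beside 46.3% of all tested genes, of which 23.6% were called higher and 22.7% lower. No ligand was among the 6: Tnfsf10 was not called (-0.035, adjusted p = 0.90 in limma). The ligand genes Tnf (25 reads in knock-out, 0 in wild-type libraries) and Fasl (21 and 12 reads) failed the filter. Ltbr, the lymphotoxin beta receptor, averaged 234.6 ± 14.3 in knock-out and 111.2 ± 9.4 in wild-type retina (1.07, SE 0.082, adjusted p = 2.3e-09), Tnfrsf1b, the second receptor for tumour necrosis factor, rose by 0.88 and Tnfrsf21 by 0.48. Ngfr, the neurotrophin receptor, with the highest normalized count of the list, rose by 0.37. Of 8 tested Bcl2 relatives 3 rose and 1 fell (50% called). Bcl2l12 rose by 0.97, Bnip3l, which acts in mitophagy and had the highest normalized count among them, by 0.16, and Bcl2l13 stood at -0.15. Of 7 tested genes of other caspases and DNA fragmentation 2 rose and 2 fell (57.1% called). The nuclease genes Dffb (-0.46, adjusted p = 0.0271) and Endog (-0.35, adjusted p = 0.0407) were called lower, and Acin1, with the highest normalized count of these, was not called. The calls of Bcl2l13, Dffb and Endog ended in limma when each library was scaled to its total (-0.012, -0.33 and -0.21). The Dffb call also ended without knock-out replicate 1 (adjusted p = 0.0591) or 2 (0.0573) and without wild-type replicate 2 (0.0700) or 3 (0.0902), and that of Endog without any of knock-out replicates 2, 4 and 6 and wild-type replicates 2 to 5 (adjusted p from 0.0551 to 0.0922), with a replicate block (-0.34, adjusted p = 0.0866) and in DESeq2 (adjusted p = 0.0620).

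**Figure D4:**
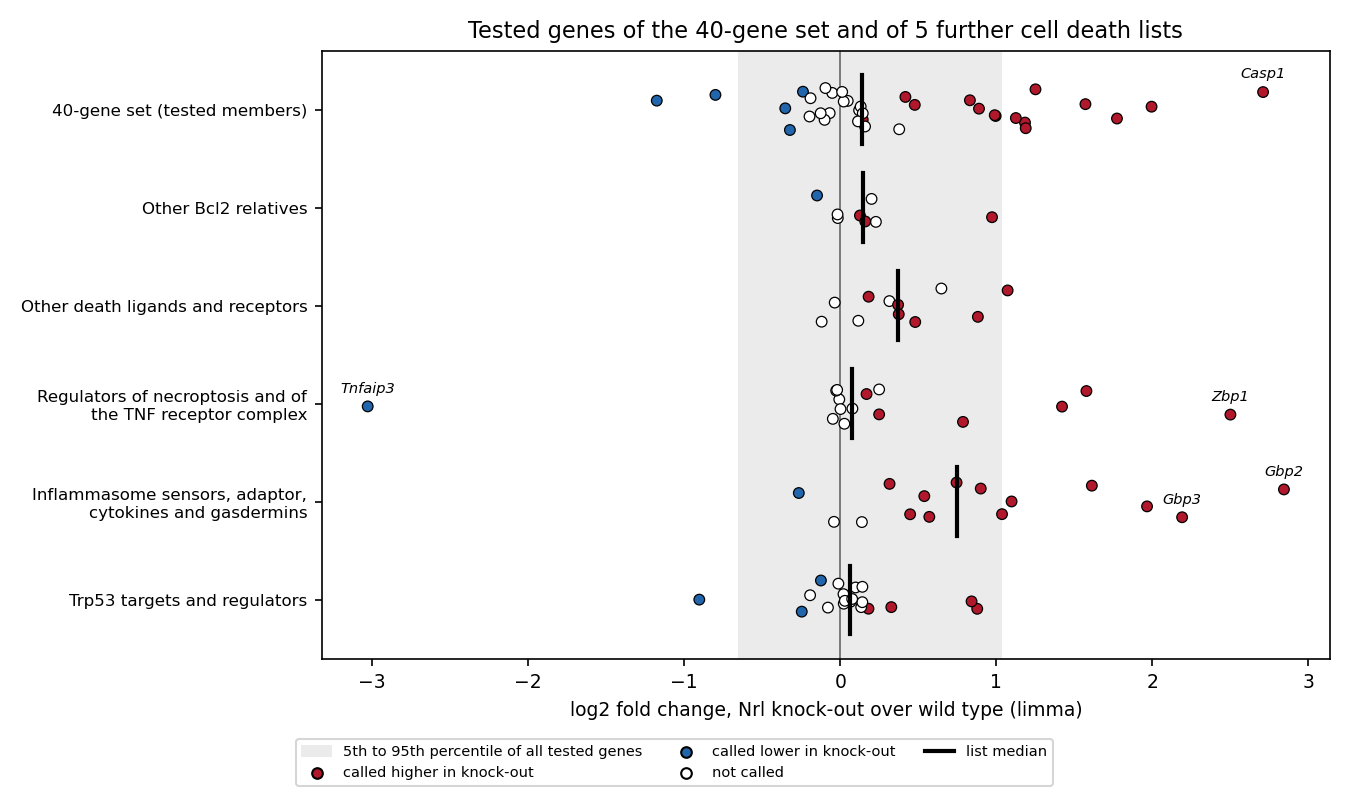
Log2 fold changes, knock-out over wild type, of the tested genes of the 40-gene set and of 5 of the further lists, with the list medians as bars and the range from the 5th to the 95th percentile of all tested genes (-0.65 to 1.03) in grey. Zbp1, Gbp2 and Gbp3 lie farthest to the right on the further lists and Tnfaip3 (-3.03) farthest to the left.

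The authors' deposited table gave an adjusted p under 0.05 to the same 20 tested members, all in the same direction. It also gave one to Casp4 (0.0153) and Mlkl (0.0259), which were not tested here.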

How the data were processed

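mRNA of retina was measured in 6 Nrl knock-out and 5 wild-type samples, grouped by their titles. Per the labels' protocols, the TruSeq libraries kept strand and gave single reads of 50 bases, and both polyA RNA and ribosomal RNA removal are named there. The authors deposited 1 signal per gene and library, read counts divided by a size factor, together with their own log2 fold change and adjusted p-value, per the file headers. Tools named in the submitters' processing notes, with no role or order, are DESeq, HTSeq 0.6.0 and TopHat2 2.1.1, with mm9 as build. How strand was counted is not given in the sources used here, so reads of overlapping genes are uncertain: Bcl2l2, Bax, Bak1, Bad, Bnip3, Diablo and Htra2 share at least 10% of their exon bases with another gene in GENCODE vM21 (GRCm38), which also gave exon lengths. All values (100% in each library, within 1e-06 of a read) were whole multiples of 1 step, so whole reads were recovered for all 11 libraries. Depth limits the low genes, and floors and read counts cover counting error only.

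Genes with at least 10 normalized counts in at least 5 libraries (14584) were tested with limma 3.58.1 (R 4.3.3; trend, robust, two-sided) on log2(normalized count + 1), fitting genotype alone. The count of 1 added before the log understates changes of low genes. The limma step was tested on simulated counts in which few genes changed, so that check does not cover differences as widespread as in these data. Alternatives were edgeR 4.0.16 and DESeq2 1.42.0 on recovered reads, other scalings, filters and pseudocounts, a replicate block, and leaving out each library; leaving out wild-type replicate 1 and knock-out replicate 2 together was chosen after seeing the data. As no label ties a replicate to an animal of its own, a p-value here covers only the spread among these libraries, and that may be technical. Members and lists were chosen with earlier results of these data known. Every member is accounted for, with library values for those called at 2-fold or more; of each further list, the 3 largest called changes and the gene with the highest normalized count are named, except for a result of the list of other caspases and DNA fragmentation that is not reported here, which is also left out of the plot of lists.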

Additional observations from a re-analysis of the deposited data

Results flagged for a closer look

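2 values lay apart from the other libraries of their genotype by Dixon's criterion, among 118 groups of libraries examined, where chance gives about 1 in 20. Casp12 stood at 34.98 normalized counts in knock-out replicate 2, against 27.97 in the next highest knock-out library, and its call held without that library. Tnfrsf10b stood at 9.82 normalized counts in wild-type replicate 4, against 13.6 in the next lowest wild-type library, and was not called with or without it.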

How the results depend on the processing

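Of the 20 called members, 19 kept their call and direction under each of the 22 alternatives that tested them; Casp2 lost its call when each library was scaled to its total. Under that scaling the median difference over all genes was 0.13, against -0.0073 in the main analysis. With it, 5861 genes were higher and 1711 lower in limma (5883 and 1703 in edgeR), against 3448 and 3304, and 22 members were higher and 4 lower in both tools, against 15 and 5. The further lists then held 2 lower genes in limma and 2 in edgeR, against 8. Uncalled genes changed sign under it, in limma and edgeR: Casp9 (0.068 and 0.069), Bcl2l2 (0.085 and 0.084), Bid (0.034 and 0.048), Bnip3 (0.041 and 0.039), Aifm1 (0.011 and 0.0099) and Acin1 (0.077 and 0.072). Bax, Bak1, Bad, Bbc3, Diablo, Htra2 and Birc2 were called higher under it. A filter at 50 normalized counts left 13 called members, 8 of them higher, because fewer genes were tested, and no filter gave 23, 17 of them higher. Leaving out 1 library gave 20 to 22 called members, and 5 to 8 lower genes on the further lists, the lowest count coming without wild-type replicate 2, 3 or 4. Tnfrsf10b then ranged from -0.085 to 0.11. Leaving out wild-type replicate 1 together with knock-out replicate 2 left 20 called members and gave Tnfrsf10b -0.050. Same-numbered libraries of the genotypes deviated together with correlations of -0.13 to 0.22, and 2 of 5 numbers matched best with their own. These few values cannot settle whether the numbers pair the libraries. A replicate block in limma gave 21 called members, the added call being Bbc3 (0.34, adjusted p = 0.0481). With it, the counts of all genes (6791) and of the further lists (39) stayed within 1.5 times.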
